A study of Danio rerio with 22 samples.

Results

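The genes described here are 150 genes whose transcript level in zebrafish germ cells ran most strongly opposite to that of 3 meiotic genes, DMC1 (ENSDARG00000055883), SYCP3 (ENSDARG00000013438) and MEIOB (ENSDARG00000062442). They were the 150 of 10947 ranked genes (1.37%), among 32057 genes in each file, with the lowest Pearson correlation with the mean level of the meiotic genes over 14 germ cell libraries of larvae at 10 and 12 days post fertilization (dpf). Levels were in TPM (transcript levels scaled for gene length and to the same total in every library) and were correlated as log2(TPM + 1). Genes with a mean below 5 TPM were not ranked, and 6 genes were set aside beforehand. The correlations lay between -0.88 and -0.74 (median -0.77), whereas the median over all ranked genes was -0.21. The genes were thus chosen by the TPM values of these 14 libraries, which are given as a description without a test. Independent tests were made in 6 libraries that the choice did not use, and the trunk cells give a comparison that is not independent of it.

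Meiosis begins when a germ cell, after its last mitotic divisions, replicates its DNA once more and enters prophase I. There DMC1, a meiotic recombinase, and MEIOB, a single-stranded DNA binding protein, act in the repair of programmed breaks, and SYCP3 forms the axes of the paired chromosomes. In zebrafish the larval gonad first holds proliferating germ cells that are not yet sexually distinct, and early oocytes then appear. Proliferating cells depend on the licensing of replication origins, on nucleotide synthesis and on making ribosomes.

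All germ cells came from larvae that were crosses of the Nadia strain, which carries a W locus linked to female sex, with Tupfel long-fin fish carrying the ziwi:GFP transgene, in which the promoter of piwil1 drives GFP in germ cells. W-hybrid larvae had a WW Nadia mother and were presumptive females, and Z-hybrid larvae had a ZZ Nadia father and were presumptive males, so the W locus and the direction of the cross cannot be told apart. GFP-positive germ cells of pooled larvae were sorted from dissected gonads, and each library held the RNA of many cells. By Smart-seq there were 4 W-hybrid and 4 Z-hybrid libraries at 12 dpf and 3 of each at 10 dpf. By Quartz-seq, another way of amplifying cDNA, there were 2 W-hybrid libraries and 1 Z-hybrid library at 14 dpf and the same numbers at 12 dpf. The 2 libraries of trunk cells, by Smart-seq, are labelled 10 dpf, with no hybrid given. In bulk libraries such as these, fewer cells of a type and less RNA per cell cannot be told apart.

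Total counts lay between 13556577 and 37224647 per library. By Smart-seq, 18743 to 20284 genes reached 10 counts in germ cells, whereas in the Quartz-seq libraries 18966 to 20378 genes did so in the W-hybrid and 16597 (12 dpf) and 16617 (14 dpf) in the Z-hybrid. The germ cell gene DDX4 (ENSDARG00000014373) was at 826 to 1636 TPM in germ cells by Smart-seq and 4166 to 5495 TPM by Quartz-seq, and at 0.09 and 0 TPM in trunk cells. A list of 28 epidermal markers summed to 97.8 to 215 TPM in the germ cell libraries and to 39293 and 102873 TPM in trunk cells. A list of 24 genes of gonadal somatic cells, which also holds genes that germ cells use, summed by Quartz-seq to 4048 and 4759 TPM in the W-hybrid, against 7443 TPM in the Z-hybrid at 14 dpf, and to 4997 and 5130 TPM in the W-hybrid, against 4101 TPM in the Z-hybrid at 12 dpf. Of 25 genes of early oocytes the sum was 5749 and 6329 TPM in the W-hybrid, against 8298 TPM in the Z-hybrid at 14 dpf, and 6343 and 6706 TPM in the W-hybrid, against 4845 TPM in the Z-hybrid at 12 dpf. That list shares genes with lists of mitotic and germ cell genes and is not particular to oocytes. In trunk cells it summed to 1358 and 1486 TPM. For 36 muscle markers the sum was 973 and 1084 TPM in the W-hybrid, against 1208 TPM in the Z-hybrid at 14 dpf, and 1274 and 5880 TPM in the W-hybrid, against 1231 TPM in the Z-hybrid at 12 dpf, so that 1 W-hybrid library of 12 dpf stood apart. Muscle markers summed to 406 to 675 TPM in germ cells by Smart-seq and to 331 and 7955 TPM in trunk cells. The part of these lists in the results below was not tested.

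The mean level of the 150 genes over the 14 libraries ranged from 5.01 to 459 TPM with a median of 23.1 TPM, against a median of 22.6 TPM over all ranked genes, and 22 of them were at 100 TPM or more. Their median gene length was 1875 bases, against 1850 bases over all ranked genes. Only 7 of the 150 (4.67%) were under 1 TPM in both trunk libraries, against 11.4% of all ranked genes. The 7 were ENSDARG00000094498, neurog1, rdh20, penka, RGS9, glulc and trmt9b. Symbols were known for 149 of the 150.

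The level of the 150 genes separated the Smart-seq libraries, which chose them, largely by age. The mean log2(TPM + 1) of the 150 genes minus that of all ranked genes was -0.06, -0.28, -0.09 and -0.02 in the W-hybrid and 0.16, -0.27, -0.13 and -0.43 in the Z-hybrid at 12 dpf, and 0.12 to 0.23 in the 6 libraries of 10 dpf. The 3 meiotic genes had a mean log2(TPM + 1) of 6.52 to 7.25 in the W-hybrid and 5.15, 7.14, 7.08 and 8.49 in the Z-hybrid at 12 dpf, and 4.96 to 5.63 at 10 dpf. The rule ties these measures to each other, so their opposite order in these libraries is not a separate result. Z-hybrid replicate 1 of 12 dpf stood with the libraries of 10 dpf in both measures. Z-hybrid replicate 4 of 12 dpf stood at the other end. DMC1, for example, was at 39.5 TPM in replicate 1 of the Z-hybrid and 351 TPM in its replicate 4. The choice of genes leaned on that library: without Z-hybrid replicate 4, 52 of the 150 genes would have been among the 150 lowest, although all were still negatively correlated (median -0.77, highest -0.58).

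**Figure D1:**
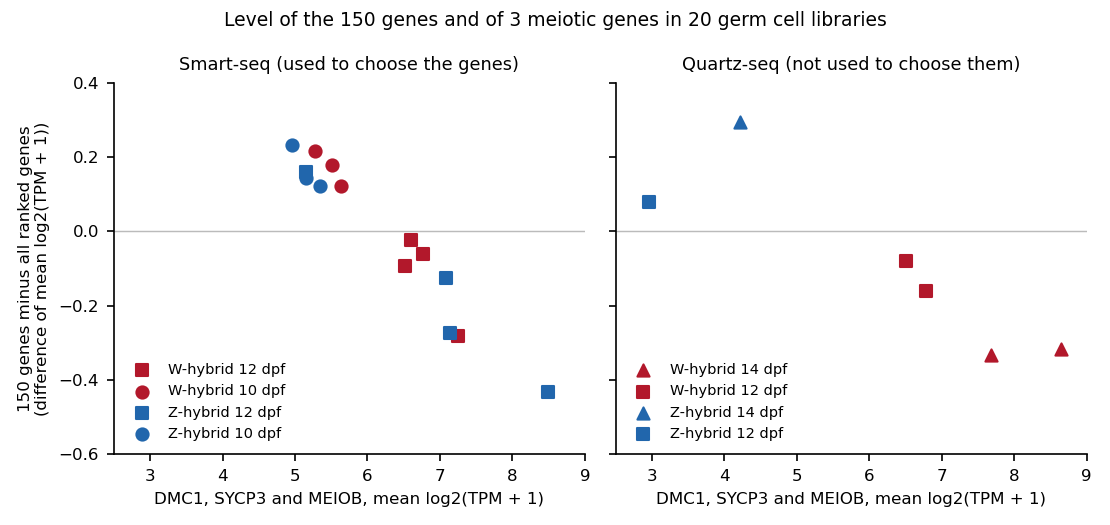
Each point is a germ cell library, with the mean log2(TPM + 1) of DMC1, SYCP3 and MEIOB on the x axis and the mean log2(TPM + 1) of the 150 genes minus that of all ranked genes on the y axis; red marks the W-hybrid, blue the Z-hybrid, circles 10 dpf, squares 12 dpf and triangles 14 dpf. In the left panel, whose libraries chose the genes, Z-hybrid replicate 1 of 12 dpf (0.16) lies with the libraries of 10 dpf, and in the right panel the 4 W-hybrid libraries (-0.33 to -0.08) lie below the 2 Z-hybrid libraries (0.08 and 0.30).

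Both age and the spread within an age entered the correlations. Within the 6 libraries of 10 dpf alone the median correlation of the 150 genes was -0.47 and 123 were below 0, and within the 8 libraries of 12 dpf it was -0.66 and all 150 were below 0. With the values centred on the mean of each hybrid and age it was -0.61, but only 39 of the 150 would have been among the 150 lowest. The median TPM over the libraries of 12 dpf was lower than that of 10 dpf for all 150 genes, with ratios of 12 to 10 dpf between 0.481 and 0.943 (median 0.735), and it was lower for 68.6% of all ranked genes (median ratio 0.914). The lowest ratios were those of LDLRAD4, which in human cells limits TGF-beta signalling, SRF, a transcription factor of growth and cytoskeletal genes, DIPK2A and the oxysterol-binding family member OSBPL10. In 9 genes every library of 12 dpf was below every library of 10 dpf, namely slc25a1a, RCL1, BAMBI, PGRMC1, NKAIN4, OSBPL10, SMIM14, ATP6V1C1 and NUDT14, and this was so for 0.411% of all ranked genes. The rule used these values, so nothing is read from the difference.

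At the edge of the choice, malt2, NUDT14 and si:ch211-221j21.3 were the last genes taken, with correlations that round to -0.74. CCDC85C, ACAA2 and RETSAT were the first not taken, with -0.7355, -0.7348 and -0.7345. The values just inside and just outside the boundary were thus nearly the same.

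The lowest correlation was that of apol (ENSDARG00000073718), a member of the apolipoprotein L family (-0.88). At 12 dpf it was at 18.5, 12.4, 17.8 and 17.2 TPM in the W-hybrid and 28.1, 12.0, 15.8 and 14.98 TPM in the Z-hybrid, and at 10 dpf at 24.3, 21.2 and 26.9 TPM in the W-hybrid and 32.5, 29.5 and 24.6 TPM in the Z-hybrid. Z-hybrid replicate 1 was the only library of 12 dpf inside the range of 10 dpf. The next lowest were LYPD6, which modulates Wnt signalling, afg1lb, ENSDARG00000094498, TMBIM6, TADA1, PSMG1, ENSDARG00000114742, LIPA, NEU3, pecr and MLLT1, down to -0.84. TMBIM6 (ENSDARG00000077934), an inhibitor of cell death in the membrane of the endoplasmic reticulum, was the most abundant of these, at 413, 319, 316 and 469 TPM in the W-hybrid and 447, 297, 331 and 301 TPM in the Z-hybrid at 12 dpf, and at 475, 425 and 512 TPM in the W-hybrid and 523, 514 and 518 TPM in the Z-hybrid at 10 dpf. Here 2 libraries of 12 dpf, W-hybrid replicate 4 and Z-hybrid replicate 1, overlapped with those of 10 dpf. By mean level over the 14 libraries the leading genes were FABP7, HDAC1, TMBIM6, EIF3D, NOP56, PPIB, ube2nb and SF3B4.

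Of the 150 genes, 81 were assigned by known function to 10 groups after their values had been seen, and genes named below for their group were likewise chosen then. The other 69, of which 9 carry only a clone name, hold among others genes of the actin and microtubule cytoskeleton (ARPC5L, TWF1, KATNA1, arhgdig) and genes of little known function. The groups are described by counts and values, and no group was tested as a whole.

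The first group held 7 genes that replicate DNA or organise chromosomes. They were orc2 and ORC5, subunits of the origin recognition complex, lrwd1, which binds that complex, CDT1, which loads the replicative helicase, POLD2 and pold3, subunits of DNA polymerase delta, and the condensin subunit SMC2. Their ratios of 12 to 10 dpf were 0.6247 to 0.801. lrwd1 (ENSDARG00000035147) was at 53.3, 33.3, 46.5 and 50.2 TPM in the W-hybrid and 66.0, 34.2, 34.8 and 38.8 TPM in the Z-hybrid at 12 dpf, and at 65.4, 60.4 and 73.6 TPM in the W-hybrid and 74.5, 52.97 and 71.2 TPM in the Z-hybrid at 10 dpf. The ranges overlapped through Z-hybrid replicate 1 and W-hybrid replicate 1 of 12 dpf. CDT1 (ENSDARG00000051854) had a median of 54.7 TPM at 12 dpf (40.3 to 98.5) and 73.8 TPM at 10 dpf (57.4 to 87.4), and its highest value was that of Z-hybrid replicate 1 of 12 dpf.

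Of a list of 50 DNA replication genes that were ranked, 5 (10.0%) were among the 150, and the median correlation over the list was -0.17, near that over all ranked genes (-0.21). Of lists compiled after the values were seen, 4 of 17 genes of origin recognition and licensing and 2 of 8 subunits of DNA polymerases delta and epsilon were among the 150. Of 42 mitotic genes there was 1, SMC2, and of 38 meiotic genes, whose median correlation was 0.65, there was none. None of 14 ranked germ cell genes, 71 ribosomal proteins or 59 genes of oxidative phosphorylation was among the 150.

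The 4 genes of nucleotide synthesis were PAICS and ADSL, of the purine pathway, UMPS, of the pyrimidine pathway, and the uridine kinase UCKL1. They were 4 of the 20 ranked genes of a list for nucleotide synthesis, compiled after the values were seen, whose median correlation was -0.48. PAICS (ENSDARG00000033539) was at 151, 94.3, 125 and 123 TPM in the W-hybrid and 145, 93.7, 96.3 and 81.5 TPM in the Z-hybrid at 12 dpf, and at 143, 153 and 163 TPM in the W-hybrid and 145, 131 and 133 TPM in the Z-hybrid at 10 dpf. Replicate 1 of each hybrid was the library of 12 dpf that reached the levels of 10 dpf.

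Ribosome biogenesis and RNA processing gave 11 genes and translation 6. NOP56 (ENSDARG00000012820), a core protein of the small nucleolar particles that methylate ribosomal RNA, had a median of 245 TPM at 12 dpf (214 to 300) and 334 TPM at 10 dpf (276 to 365). RCL1 (ENSDARG00000038312), which acts in the maturation of the small ribosomal subunit, was at 93.9, 78.5, 83.2 and 91.8 TPM in the W-hybrid and 86.3, 84.5, 90.3 and 75.9 TPM in the Z-hybrid at 12 dpf, and at 102, 104 and 112 TPM in the W-hybrid and 116, 108 and 121 TPM in the Z-hybrid at 10 dpf, with no overlap between the ages. The other genes of this group included nol12, DDX55, the RNA exosome subunits EXOSC2 and EXOSC6, the splicing factor SF3B4 and DGCR8, which with Drosha cuts primary microRNAs. Of 51 ranked genes of ribosome biogenesis only NOP56 was among the 150, but the median correlation of the list was -0.43. In the translation group were EIF3D, a subunit of initiation factor eIF3, DENR, HGH1, FMR1 and the mitochondrial ribosomal proteins MRPS34 and MRPL3, with ratios of 12 to 10 dpf of 0.695 to 0.922.

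Chromatin and transcription gave 11 genes. HDAC1 (ENSDARG00000015427), a histone deacetylase of several corepressor complexes, was at 477, 360, 419 and 400 TPM in the W-hybrid and 594, 339, 392 and 368 TPM in the Z-hybrid at 12 dpf, and at 491, 453 and 561 TPM in the W-hybrid and 611, 479 and 486 TPM in the Z-hybrid at 10 dpf. The other members included TADA1, of the SAGA coactivator, DR1, a repressor of the general transcription machinery, MEN1 (menin), the homeodomain factor pbx2, mbd2, which binds methylated DNA, and the neurogenic factor neurog1. MEN1 had a median of 48.5 TPM at 12 dpf (37.4 to 66.8) and 82.4 TPM at 10 dpf (51.2 to 85.9), a ratio of 0.588.

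The endoplasmic reticulum and secretory pathway gave 12 genes, the lysosome and endosome 5, lipid metabolism 10, signalling 11 and protein turnover 4. Among the first were PPIB, a prolyl isomerase that folds collagen, the signal recognition particle receptor subunit srprb, PDIA5, and ern1, which senses unfolded proteins. LIPA, the lysosomal acid lipase, and the proton pump subunit ATP6V1C1 were among the lysosomal genes. Lipid genes included the mitochondrial citrate carrier slc25a1a, PGRMC1 and the fatty acid binding protein FABP7. The signalling genes included BAMBI, a pseudoreceptor that limits TGF-beta and BMP signalling, LDLRAD4, the growth factor igf2a, PTK7, EFNA2 and the opioid peptide precursor penka. BAMBI (ENSDARG00000055381) was at 46.0, 31.3, 29.4 and 39.0 TPM in the W-hybrid and 42.3, 26.8, 33.4 and 33.0 TPM in the Z-hybrid at 12 dpf, and at 50.7, 46.3 and 62.4 TPM in the W-hybrid and 58.8, 58.7 and 51.6 TPM in the Z-hybrid at 10 dpf, again without overlap.

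**Figure D2:**
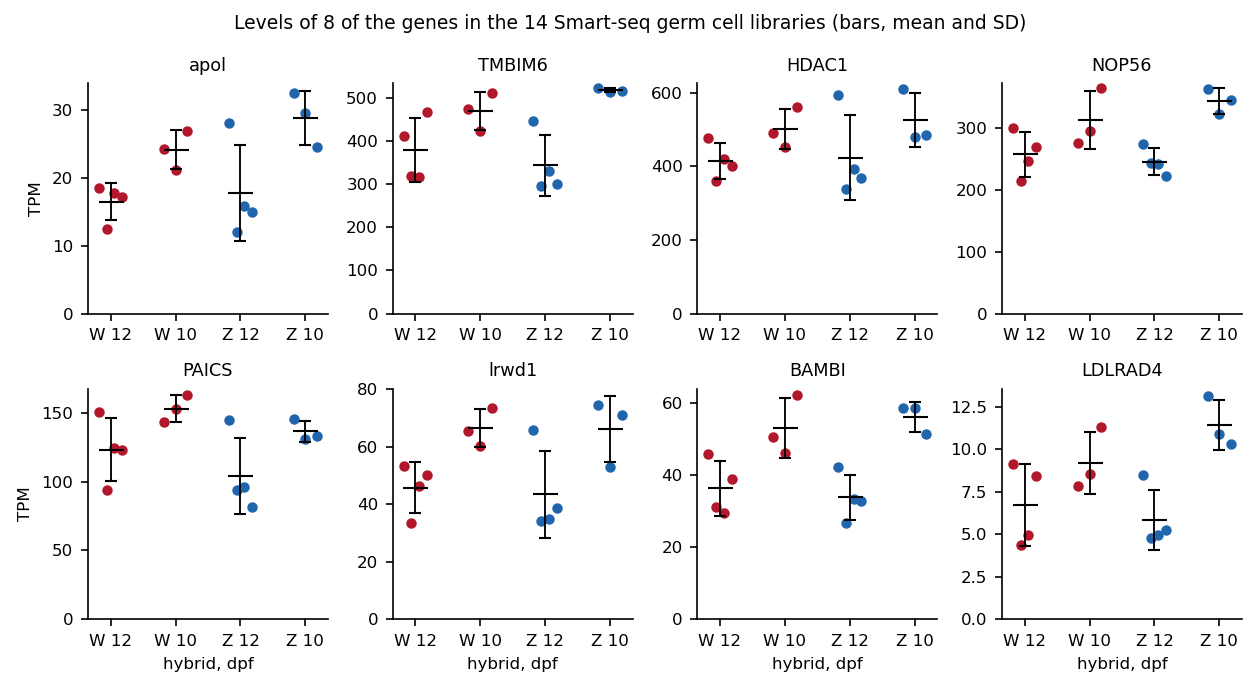
TPM of 8 of the 150 genes in the 14 Smart-seq germ cell libraries, by hybrid (W or Z) and age in dpf; points are libraries and bars the mean and SD of a group (n = 4 each at 12 dpf, n = 3 each at 10 dpf). In apol, HDAC1, PAICS and lrwd1 the highest Z-hybrid point of 12 dpf, replicate 1, lies within or above the points of 10 dpf, whereas in BAMBI every point of 12 dpf (26.8 to 46.0 TPM) lies below every point of 10 dpf (46.3 to 62.4 TPM).

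In both hybrids the Smart-seq fold changes of 12 against 10 dpf lay mostly below 0, as the choice of the genes fixes. The median log2 fold change was -0.32 in the W-hybrid, with 148 of 150 genes below 0 (median of all ranked genes -0.07, 58.2% below 0), and -0.24 in the Z-hybrid, with 138 below 0 (median of all ranked genes 0.06, 44.3% below 0). Between the hybrids the 150 genes were close to 0, with a median log2 fold change of W- against Z-hybrid of -0.01 at 12 dpf and 0.05 at 10 dpf. The medians of all ranked genes were -0.09 at 12 dpf and 0.06 at 10 dpf. At 12 dpf 56.0% of the 150 genes and 62.7% of the ranked genes were below 0. The rule used these libraries, so nothing is read from the values between the hybrids either.

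Whether the 150 genes were lower still as W-hybrid germ cells aged was asked in the Quartz-seq libraries of 14 and 12 dpf. The meiotic genes were higher at 14 dpf, with DMC1 at 144 and 301 TPM at 14 dpf and 72.9 and 59.6 TPM at 12 dpf, MEIOB at 227 and 504 TPM at 14 dpf and 119 and 61.0 TPM at 12 dpf, and SYCP3 at 259 and 422 TPM at 14 dpf and 148 and 200 TPM at 12 dpf. The 150 genes leaned the other way by a small amount. Their median log2 fold change was -0.19, against 0.00 over the ranked genes, and 107 (71.3%) were below 0, against 49.4% of the ranked genes. Over 12 alternatives the median lay between -0.29 and -0.09 and the number below 0 between 83 and 116. No single gene passed the test. Calls required an adjusted p (edgeR's quasi-likelihood test, Benjamini-Hochberg over 23154 genes) under 0.05, a fold change of 1.5 or more and a higher-group mean above 5 TPM. None of the 150 was called, against 0.013% of all genes tested and 0.00929% of the ranked genes, and DESeq2 also called none. At an unadjusted p under 0.05 in either direction there were 3 of the 150 (2%) by edgeR, against 3.12% of the ranked genes, and 7 by DESeq2. All 3 by edgeR were lower at 14 dpf. Of the 10765 ranked genes 336 had such a p by edgeR, and 125 of these were lower.

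The 3 genes were FADS3, LETM2 and DEPDC7, all lower at 14 dpf. FADS3 (ENSDARG00000019532), of the fatty acid desaturase family, was at 87.6 and 107 TPM at 14 dpf and 151 and 158 TPM at 12 dpf (log2 fold change -0.76 ± 0.26 (SE), adjusted p by edgeR 1). LETM2, of the mitochondrial inner membrane, was at 34.4 and 34.1 TPM at 14 dpf and 59.3 and 46.8 TPM at 12 dpf (-0.71 ± 0.27, adjusted p by edgeR 1). In neither gene did the difference hold after adjustment. Of the replication group 6 of 7 genes were below 0, with a median of -0.39, and of the 11 chromatin genes 8 were below 0, with a median of -0.16. The 6 translation genes had a median of -0.03, with 3 below 0. Over all ranked genes 49.4% were below 0. On lists that hold mostly genes outside the choice, 34 of 50 DNA replication genes (median -0.18) and 12 of 17 genes of origin recognition and licensing (-0.35) were below 0. So were 21 of 37 chromatin genes (-0.04) and all 71 ribosomal proteins (-0.33), none of which was chosen. The lower level of the replication group was thus not particular to the chosen genes.

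Germ cells of W- and Z-hybrid larvae at 14 dpf differed more. The meiotic genes were far lower in the Z-hybrid library, with DMC1 at 144 and 301 TPM in the W-hybrid, against 8.64 TPM in the Z-hybrid, SYCP3 at 259 and 422 TPM in the W-hybrid, against 27.3 TPM in the Z-hybrid, and MEIOB at 227 and 504 TPM in the W-hybrid, against 22.5 TPM in the Z-hybrid. Of the 150 genes, 20 were lower and 2 higher in W-hybrid germ cells, where 9.18% of all genes tested were called in either direction. The share called lower was 13.3%, against 7.34% of the ranked genes and 4.95% of all genes tested, and the share called higher was 1.33%, against 6.36% of the ranked genes and 4.23% of all genes. The median log2 fold change was -0.58, against 0.08 over the ranked genes and 0.28 over all genes tested, and 108 of the 150 (72.0%) were below 0, against 46.8% of the ranked genes. In TPM, both W-hybrid libraries lay below the Z-hybrid library in 78 of the 150 (52.0%) and in 30% of the ranked genes.

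The Z-hybrid had 1 library at each age, so its spread was taken to be that of the W-hybrid pairs, with 2 residual degrees of freedom in the fit of 6 libraries. Without TMM scaling, that is with library size alone, the counts were 10 lower and 5 higher, against 36 and 4 with the replicate block and 55 and 12 with all 20 germ cell libraries in the fit. Of the ranked genes, 4.30% were lower and 9.56% higher with library size alone. The shares were 12.3% and 10.7% with the replicate block, and 14.6% and 15.3% with all 20 libraries. The number of calls thus depended on the fit, among the ranked genes as among the 150. With library size alone the median of all genes moved to 0.59, but the distance of the 150 genes from the ranked genes was -0.66 with either scaling and between -0.68 and -0.63 over 10 alternatives.

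**Figure D3:**
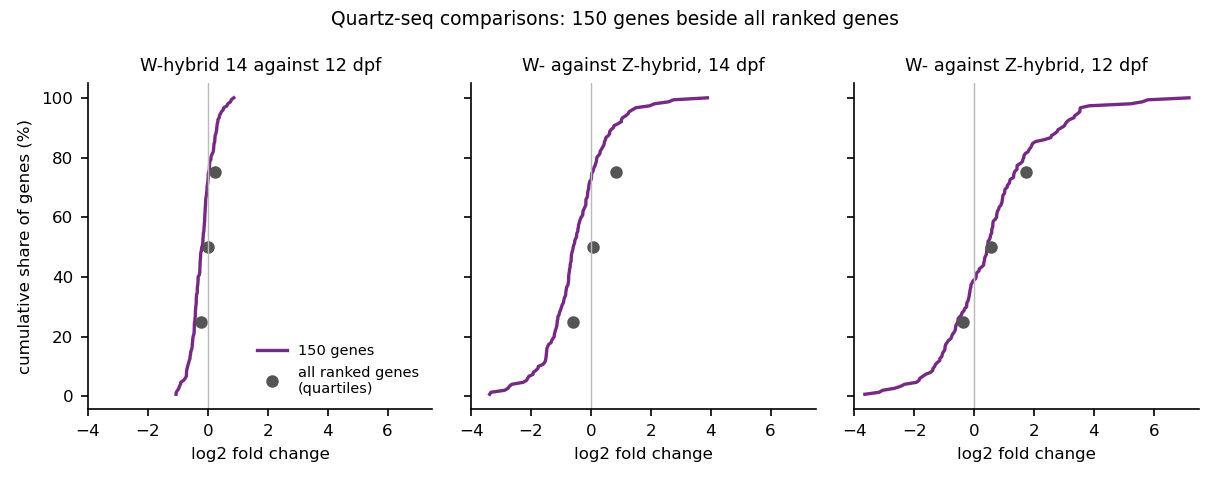
Cumulative share of the 150 genes (purple line, y axis in percent) by log2 fold change (x axis) in the 3 Quartz-seq comparisons, with the lower quartile, median and upper quartile of all ranked genes as grey points. The line lies left of the grey points for W-hybrid 14 against 12 dpf (median -0.19 against 0.00) and for W- against Z-hybrid at 14 dpf (-0.58 against 0.08), and close to them for W- against Z-hybrid at 12 dpf (0.45 against 0.55).

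The largest differences among the genes called at 14 dpf were those of 5 genes that were lower in the W-hybrid. TP53I11 (ENSDARG00000006025) was at 29.9 and 21.6 TPM in the W-hybrid, against 230 TPM in the Z-hybrid (log2 fold change -3.38 ± 0.33 (SE), adjusted p by edgeR 0.00084). LDLRAD4 (ENSDARG00000070555) was at 31.7 and 15.8 TPM in the W-hybrid, against 191 TPM in the Z-hybrid (-3.34 ± 0.42, adjusted p by edgeR 0.0013). GALNT2 (ENSDARG00000003829), which starts the O-glycosylation of mucin-type proteins, was at 44.3 and 31.1 TPM in the W-hybrid, against 237 TPM in the Z-hybrid (-2.88 ± 0.32, adjusted p by edgeR 0.0012). In all of them the Z-hybrid library stood far above both W-hybrid libraries. ssbp3b (ENSDARG00000030155), a cofactor of LIM-domain transcription complexes, was at 144 and 67.0 TPM in the W-hybrid, against 623 TPM in the Z-hybrid (-2.77 ± 0.39, adjusted p by edgeR 0.0019). OSTF1 (ENSDARG00000091555) was at 1.13 and 3.92 TPM in the W-hybrid, against 12.6 TPM in the Z-hybrid (-2.64 ± 0.63, adjusted p by edgeR 0.02).

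The other 15 genes that were lower had log2 fold changes between -2.26 and -1.10. They were ST8SIA1, which makes the ganglioside GD3, LNPEP, pbx2, OSBPL10, MARCHF8, DR1, DGCR8, FADS3, the protein kinase PRKCE, PDCD10, WDFY2, LETM2, cnbpb, HDAC1 and EIF3D. HDAC1 was at 552 and 574 TPM in the W-hybrid, against 1037 TPM in the Z-hybrid (-1.12 ± 0.29, adjusted p by edgeR 0.027), and DR1 (ENSDARG00000105098) was at 103 and 102 TPM in the W-hybrid, against 304 TPM in the Z-hybrid (-1.84 ± 0.29, adjusted p by edgeR 0.0028). Thus 4 of the 11 chromatin and transcription genes (HDAC1, DR1, pbx2 and ssbp3b) and 3 of the 10 lipid genes (FADS3, ST8SIA1 and OSBPL10) were lower, whereas none of the 7 replication genes and none of the 4 nucleotide synthesis genes passed the test in either direction. With library size alone the calls of HDAC1 (adjusted p by edgeR 0.0563), ST8SIA1 (0.0534) and OSBPL10 (0.0557) were lost, which left DR1, pbx2 and ssbp3b of the chromatin genes and FADS3 of the lipid genes. The other calls lost in that fit were those of WDFY2, PDCD10, cnbpb, MARCHF8, LETM2, EIF3D and PRKCE. The replication genes had a median of -0.24 and the nucleotide genes of -0.36. Over all ranked genes 7.34% were called lower and 6.36% higher, and no group was tested against these shares.

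The 2 genes higher in the W-hybrid at 14 dpf were TMEM237 (ENSDARG00000074248), of the transition zone of cilia, at 35.3 and 40.4 TPM in the W-hybrid, against 5.04 TPM in the Z-hybrid (2.75 ± 0.66, adjusted p by edgeR 0.021), and RUFY1 (ENSDARG00000078685), of early endosomes, at 8.07 and 9.10 TPM in the W-hybrid, against 1.15 TPM in the Z-hybrid (2.60 ± 0.71, adjusted p by edgeR 0.035). TMEM237 and RUFY1 therefore ran with the meiotic genes in these libraries and not against them. A larger difference that was not called was that of LYPD6, at 6.94 and 3.68 TPM in the W-hybrid, against 0.20 TPM and 3 counts in the Z-hybrid (ratio 22.9, exact Poisson 95% interval 7.85 to 111.2, adjusted p by edgeR 0.0747), whose interval covers the error of counting alone. The call of RUFY1 was lost when W-hybrid replicate 2 of 14 dpf was left out (adjusted p by edgeR 0.0509), as were those of MARCHF8 (0.152) and PRKCE (0.0914), and that of EIF3D when either W-hybrid replicate of 12 dpf was left out (0.052 and 0.0506).

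**Figure D4:**
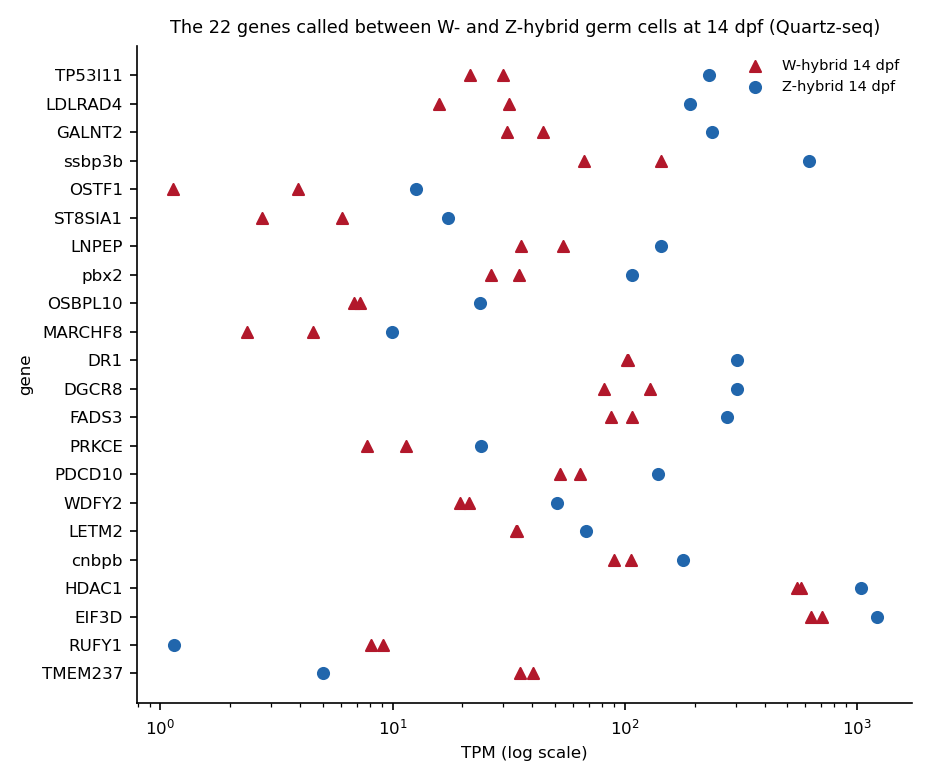
TPM on a log axis of the 22 genes, among the 150, that were called between W-hybrid (red triangles, 2 libraries) and Z-hybrid (blue circles, 1 library) germ cells at 14 dpf by Quartz-seq. In the 20 genes from TP53I11 to EIF3D the Z-hybrid library lies above both W-hybrid libraries, and in RUFY1 and TMEM237 it lies below both.

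The same comparison at 12 dpf by Quartz-seq shows another pattern. The meiotic genes were again lower in the Z-hybrid library (DMC1 at 72.9 and 59.6 TPM in the W-hybrid, against 2.09 TPM in the Z-hybrid), but the 150 genes did not stand below the ranked genes by much. Of the 150, 27 were higher and 13 lower in W-hybrid germ cells, where 21.5% of all genes tested were called in either direction. The share called higher was 18%, against 24.8% of the ranked genes and 13.3% of all genes tested, and the share called lower was 8.67%, against 7.71% and 8.14%. The median log2 fold change was 0.45, against 0.55 over the ranked genes and 0.31 over all genes tested, and 58 of the 150 were below 0. The 13 lower became 8 without W-hybrid replicate 1 of 12 dpf, 23 with DESeq2, 22 with the replicate block and 25 with all 20 germ cell libraries in the fit, which also moved the 27 higher to 46. Of the ranked genes, 12.0% were lower with DESeq2, 10.4% with the replicate block and 11.7% with all 20 libraries, where 34.9% were higher. The Z-hybrid library of 12 dpf had the lowest total among the Quartz-seq libraries (13828829 counts), and 11 of the 150 genes were under 10 counts in it.

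LDLRAD4, ssbp3b and OSTF1 were among the 5 lowest here as at 14 dpf, in other libraries of both hybrids. LDLRAD4 was at 22.3 and 16.9 TPM in the W-hybrid, against 270 TPM in the Z-hybrid (-3.64 ± 0.42, adjusted p by edgeR 0.00031), ssbp3b at 87.8 and 73.9 TPM in the W-hybrid, against 577 TPM in the Z-hybrid (-2.65 ± 0.39, adjusted p by edgeR 0.0009), and OSTF1 at 3.02 and 2.82 TPM in the W-hybrid, against 17.9 TPM in the Z-hybrid (-2.45 ± 0.63, adjusted p by edgeR 0.014). The others were ZNF362 (ENSDARG00000062231), at 3.23 and 1.85 TPM in the W-hybrid, against 24.3 TPM in the Z-hybrid (-3.05 ± 0.78, adjusted p by edgeR 0.014), and GGCX (ENSDARG00000067805), the vitamin K-dependent carboxylase, at 2.38 and 6.08 TPM in the W-hybrid, against 20.1 TPM in the Z-hybrid (-2.32 ± 0.56, adjusted p by edgeR 0.011). In each of the 5 the Z-hybrid library lay above both W-hybrid libraries. By Smart-seq at 12 dpf, in libraries that chose the genes, differences of this size were not seen. There the W- against Z-hybrid log2 fold changes were 0.07 (LDLRAD4), -0.20 (ssbp3b), 0.04 (OSTF1), -0.40 (ZNF362) and 0.04 (GGCX).

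Among the 27 genes higher in the W-hybrid at 12 dpf were several that were barely counted in the Z-hybrid library. FABP7 (ENSDARG00000007697) had no count there, against 28.1 and 51.9 TPM in the W-hybrid, which makes it at least 44.8-fold higher with a floor of 3 counts per library. ENSDARG00000114742, with 2 counts in the Z-hybrid library, had a ratio of 81.3 (exact Poisson 95% interval 22.5 to 672), and rassf2b, with 1 count, had a ratio of 94.3 (16.9 to 3726). Amplified reads are not independent molecules, so both intervals cover the error of counting alone. At 14 dpf neither FABP7 (17.7 and 28.5 TPM in the W-hybrid, against 42.7 TPM in the Z-hybrid) nor rassf2b (9.29 and 8.69 TPM in the W-hybrid, against 3.10 TPM in the Z-hybrid) was called. By Smart-seq at 12 dpf, in libraries that chose the genes, these large differences were not seen. There the W- against Z-hybrid log2 fold changes of FABP7, ENSDARG00000114742 and rassf2b were 0.13, -0.02 and -0.04.

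Genes with more counts were also higher in the W-hybrid at 12 dpf by Quartz-seq. ATP6V1C1 (ENSDARG00000023967) was at 37.8 and 40.8 TPM in the W-hybrid, against 2.7 TPM in the Z-hybrid (3.85 ± 0.61, adjusted p by edgeR 0.0012), DIPK2A (ENSDARG00000055629) at 9.09 and 15.9 TPM in the W-hybrid, against 1.26 TPM in the Z-hybrid (3.55 ± 0.81, adjusted p by edgeR 0.0078), and SMC2 (ENSDARG00000017744) at 119 and 131 TPM in the W-hybrid, against 36.3 TPM in the Z-hybrid (1.95 ± 0.34, adjusted p by edgeR 0.0021). By group, 1 of the 7 replication genes (SMC2), 2 of the 4 nucleotide genes (PAICS and UMPS), 3 of the 11 genes of ribosomes and RNA (NOP56, nol12 and SF3B4) and 3 of the 11 chromatin genes (MEN1, ZHX2 and MLLT1) were higher. Of the other groups, translation and the secretory pathway had 1 higher gene each, and the lysosome and lipid groups had 2 each. Over all ranked genes 24.8% were called higher. Lower were DGCR8 of the ribosome and RNA group, pbx2 and ssbp3b of the chromatin group, and GGCX and GALNT2 of the secretory group. The signalling and protein turnover groups had 1 lower gene each. Over all ranked genes 7.71% were called lower, and no group was tested against these shares. By Smart-seq at 12 dpf the W- against Z-hybrid log2 fold changes of ATP6V1C1, DIPK2A and SMC2 were -0.10, -0.10 and -0.08.

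Whether the difference between the hybrids was the same at both ages was tested as an interaction in the same fit. For 24 of the 150 genes the W- against Z-hybrid difference changed between 14 and 12 dpf (adjusted p by edgeR under 0.05), and in all 24 it was lower at 14 dpf. The share, 16%, was close to the 15.3% of the ranked genes, of which 1390 of 1652 were lower at 14 dpf. The median change was -0.93 for the 150 genes and -0.47 for the ranked genes. EIF3D (ENSDARG00000021257) was among the 24 (log2 change -1.75, adjusted p by edgeR 0.0231), with 633 and 708 TPM in the W-hybrid, against 1217 TPM in the Z-hybrid at 14 dpf, and 537 and 680 TPM in the W-hybrid, against 436 TPM in the Z-hybrid at 12 dpf. Its Z-hybrid library lay above the W-hybrid libraries at 14 dpf and below them at 12 dpf. FADS3 (-2.51, adjusted p by edgeR 0.00585), HDAC1 (-1.58, adjusted p by edgeR 0.0298), SMC2 (-2.02, adjusted p by edgeR 0.0132) and UMPS (-1.90, adjusted p by edgeR 0.0165) were others. All of these rest on 1 Z-hybrid library at each age, so that age and library cannot be told apart in the Z-hybrid.

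For the 20 genes lower in W-hybrid germ cells of 14 dpf, the median at 12 dpf by Quartz-seq was -0.88 on the log2 scale, and 9 were called lower there, none was called higher and 15 were below 0. Over all ranked genes 7.71% were called lower there, 24.8% were called higher and 34.8% were below 0. Both ages were tested in 1 fit with a shared spread, and the other ranked genes called lower at 14 dpf were not followed to 12 dpf. By Smart-seq at 12 dpf, with 4 libraries of each hybrid, the W- against Z-hybrid median of the 20 genes was -0.07 (-0.29 to 0.25). There 15 of the 20 were below 0. Over all ranked genes that median was -0.09, with 62.7% below 0, so by median the 20 genes were not lower than the ranked genes. TP53I11, the gene with the largest called change at 14 dpf, was at 13.9, 10.8, 12.9 and 13 TPM in the W-hybrid and 16.5, 10.9, 10.8 and 11.1 TPM in the Z-hybrid by Smart-seq, and at 40.9 and 33.0 TPM in the W-hybrid, against 146 TPM in the Z-hybrid by Quartz-seq. The meiotic genes of the Z-hybrid at 12 dpf also differed between the 2 methods, which were used on different libraries. DMC1 was at 39.5 to 351 TPM by Smart-seq and 2.09 TPM by Quartz-seq. Method, experiment and the state of the larvae cannot be told apart here.

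The germ cells of 10 dpf were also set against trunk cells. The germ cell libraries used here are among those that chose the 150 genes, and the minimum of 5 TPM was set in germ cells, so the counts and p-values describe these libraries and are not independent of the choice. Of the 150 genes, 79 were higher and 31 lower in the 6 germ cell libraries of 10 dpf than in the 2 trunk libraries, where 43.9% of all genes tested were called in either direction. The shares were 52.7% higher, against 46.8% of the ranked genes and 23.7% of all 22024 genes tested, and 20.7% lower, against 22.1% of the ranked genes and 20.1% of all genes. The median log2 fold change was 0.80, against 0.60 over the ranked genes, and over 13 alternatives it was 0.65 to 1.59, which is 0.07 to 0.24 above the ranked genes. In mean log2(TPM + 1) relative to the ranked genes, germ minus trunk cells was 0.10, but it turned to -0.031 with a pseudocount of 0.1 and to -0.047 on log2 CPM. Scaled by library size alone, 104 were higher and 15 lower, and the median over all genes was 1.1025 (0.35 with TMM), so that the number of lower genes depends on the scaling. Of the ranked genes 65.8% were higher and 11.5% lower with that scaling. In TPM, 9 of the 31 genes called lower had a higher mean in germ cells (GGCX, cnbpb, svild, SELENOT, apol1, SPPL2B, ssbp3b, tbc1d10aa and SUMF1), whereas none of the 79 called higher had a lower one.

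Of the replication group 6 of 7 genes were higher in germ cells, with a median log2 fold change of 2.81. Of the 50 ranked genes of the DNA replication list, most of which are not among the 150, 47 were likewise higher, with a median of 2.198. orc2 (ENSDARG00000101465) was at 27.05 to 51.4 TPM (median 45.2) in the 6 germ cell libraries and 4.38 and 0.78 TPM in trunk cells (3.26 ± 0.43, adjusted p by edgeR 5.3e-05). lrwd1 was at 52.97 to 74.5 TPM (median 68.3) in germ cells and 3.86 and 2.81 TPM in trunk cells (3.16 ± 0.21, adjusted p by edgeR 2.7e-07), and CDT1 was at 57.4 to 87.4 TPM (median 73.8) in germ cells and 6.54 and 3.82 TPM in trunk cells (3.01 ± 0.19, adjusted p by edgeR 1.9e-07). POLD2 (2.81), ORC5 (2.75) and SMC2 (0.77) were also higher. For pold3 the log2 fold change of 0.58 was just under the fold required. All 4 nucleotide genes, 10 of the 11 genes of ribosomes and RNA and 4 of the 6 translation genes were higher, and none of these groups had a gene that was lower. On the lists, which also hold genes outside the 150, 40 of 51 ribosome biogenesis genes and 15 of 20 nucleotide synthesis genes were likewise higher, with 1 lower on each. Of 31 translation genes 4 were higher and 13 lower. Over all ranked genes 46.8% were higher and 22.1% lower. UMPS (ENSDARG00000012215) was at 139 to 163 TPM (median 147) in germ cells and 21.0 and 6.82 TPM in trunk cells (2.65 ± 0.29, adjusted p by edgeR 1.2e-05).

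Among the largest ratios of germ to trunk cells were those of genes with few or no counts in trunk cells. RGS9 (ENSDARG00000045156), a regulator of G protein signalling, had no count in either trunk library, against 8.87 to 11.6 TPM (median 10.4) in germ cells, at least 60.7-fold higher with a floor of 3 counts per library. glulc, of the glutamine synthetase family, was at least 34.4-fold higher and ENSDARG00000094498 at least 20.7-fold higher, both with no count in trunk cells. rdh20, of the retinol dehydrogenase family, had 1 count in the trunk libraries and a ratio of 390 (exact Poisson 95% interval 70.0 to 15405, which covers the error of counting alone). FABP7 was at 481 to 587 TPM (median 503) in germ cells and 3.47 and 3.41 TPM in trunk cells (6.37 ± 0.27, adjusted p by edgeR 1e-08), and FADS3 was at 47.7 to 62.7 TPM (median 55.6) in germ cells and 1.41 and 0.98 TPM in trunk cells (4.65 ± 0.24, adjusted p by edgeR 3.6e-08). The next largest were SPOCK3 (4.21) and penka (4.11). The minimum of 5 TPM in germ cells entered the choice, so these ratios and p-values are descriptions and not independent tests.

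Of the 12 genes of the endoplasmic reticulum and secretory pathway, 7 were called lower in germ cells with TMM and none higher, but with library size alone 2 were lower and 3 higher. The 2 lower genes were PPIB and TEX264. Over all ranked genes 22.1% were lower and 46.8% higher with TMM, and 11.5% and 65.8% with library size alone. PPIB (ENSDARG00000092798) was at 243 to 276 TPM (median 256) in germ cells and 506 and 470 TPM in trunk cells (-1.79 ± 0.14, adjusted p by edgeR 1.2e-06), and TEX264 had a log2 fold change of -2.30. For GGCX, SUMF1, SPPL2B and SELENOT the direction turned with the scaling, with log2 fold changes of -0.75 to -0.62 by TMM and a higher mean TPM in germ cells. SUMF1, for example, was at 19.1 to 24.1 TPM (median 23.2) in germ cells and 18.7 and 20.1 TPM in trunk cells, and SPPL2B at 15.7 to 29.4 TPM (median 27.7) in germ cells and 24.2 and 20.4 TPM in trunk cells, so that the ranges overlapped. The call of ern1 (-1.22 by TMM) was lost with library size alone. The largest differences in this direction among the 150 were those of arhgdig (ENSDARG00000004034), at 20.8 to 31.8 TPM (median 26.5) in germ cells and 200 and 195 TPM in trunk cells (-3.75 ± 0.14, adjusted p by edgeR 4.9e-09), of OSTF1 (-3.31), of the kinase sgk1 (-2.86), of si:ch211-79k12.1 (-2.81) and of zgc:174863 (-2.69). BAMBI was lower as well, at 46.3 to 62.4 TPM (median 55.1) in germ cells and 143 and 173 TPM in trunk cells (-2.42 ± 0.17, adjusted p by edgeR 4.4e-07). In PPIB, arhgdig and BAMBI every germ cell library lay below both trunk libraries.

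**Figure D5:**
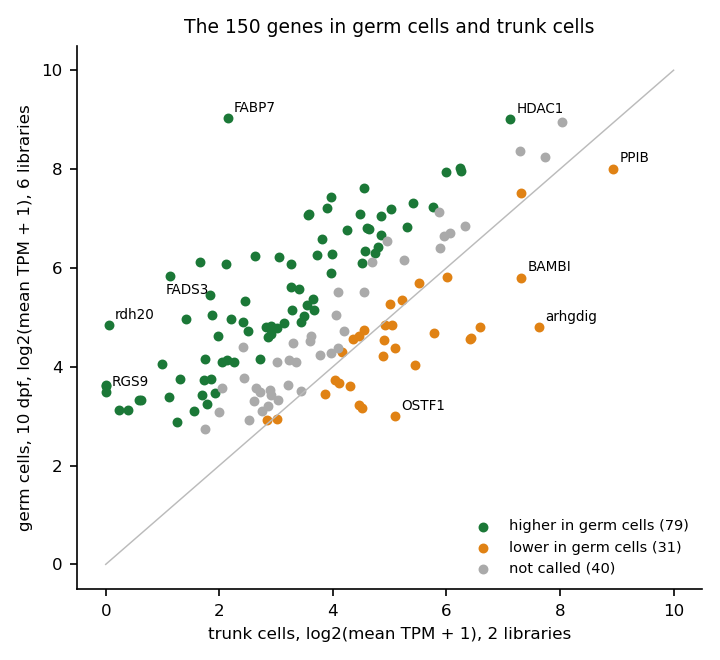
Each point is 1 of the 150 genes, with log2(mean TPM + 1) in the 2 trunk libraries on the x axis and in the 6 germ cell libraries of 10 dpf on the y axis; the line marks equal levels. Green genes were called higher in germ cells (79), orange genes lower (31, of which 9 have a higher mean TPM in germ cells) and grey genes not called, with FABP7, FADS3, rdh20 and RGS9 far above the line and arhgdig and OSTF1 below it.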

How the data were processed

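The authors mapped reads to GRCz11, with STAR 2.7.7a and RSEM 1.3.1 named in their processing notes, and deposited for each of 22 libraries the expected count per gene, an RSEM estimate that need not be whole and that shares reads between similar genes, so that members of gene families are uncertain. The deposited TPM values come from the same program. Gene lengths, which the authors deposited as means over transcripts, served only to describe the genes. All files hold the same 32057 genes, of which 28988 (90.4%) had a symbol in the table used. The general protocol text names Smart-seq for every library, whereas the descriptions give Quartz-seq for 6, and the descriptions were followed. Groups were hybrid, age and method. Where titles carried no number, the library was taken as replicate 1. Nothing states whether the replicates came from separate clutches, so p-values measure the spread between these libraries. No pair of replicates agreed within sampling noise.

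Expected counts were rounded. The fits were made with edgeR 4.0.16 (R 4.3.3), by TMM, filterByExpr, robust quasi-likelihood fits, a prior count of 2 and Benjamini-Hochberg adjustment over all genes tested, with DESeq2 1.42.0 as an alternative. The 6 Quartz-seq libraries were fitted together in 4 groups, and the germ cell libraries of 10 dpf with the trunk libraries. A standard error is the size of a log2 fold change over the root of its F statistic. Calls used the criteria of the study (adjusted p under 0.05, fold change of 1.5, 5 TPM). The 3 Quartz-seq comparisons share libraries. Descriptions were computed in Python 3.11.15. The fits were tested on simulated data.

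The 150 genes, the gene lists and the tests were chosen with earlier results of these data known, and the functional groups and some lists after the values of the genes were seen. Genes are named by rule: the 12 lowest correlations, the 5 largest called changes in each direction of a Quartz-seq comparison or against trunk cells, the 8 highest mean levels, members of the lists, and 3 genes on either side of the boundary. Others were named after their values were seen. Alternatives were other tests, scalings and filters, other sets of libraries, each library left out in turn, the replicate number as a term, and other measures for the choice of genes. Promoter motifs and proteins were not analysed here.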

Additional observations from a re-analysis of the deposited data

Results flagged for a closer look

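In 8 of 100 group values of the genes named by rule, a library lay far from the others of its group. The flagged genes share libraries whose values chose them, so this count has no chance rate to be set against. In 7 of the 8 it was Z-hybrid replicate 1 of 12 dpf by Smart-seq, the library that stood with those of 10 dpf. There ENSDARG00000094498 was at 13.49 TPM (other 3 libraries 6.49 to 6.89), TP53I11 at 16.47 TPM (10.81 to 11.07), LDLRAD4 at 8.48 TPM (4.76 to 5.25), DIPK2A at 12.53 TPM (6.77 to 7.51), sgk1 at 25.54 TPM (11.32 to 13.07), malt2 at 13.14 TPM (7.01 to 7.90) and NUDT14 at 32.07 TPM (26.67 to 27.49). That library was also low in the meiotic genes, and its values were among those that chose the 150 genes. In the W-hybrid of 12 dpf by Smart-seq, replicate 4 had zgc:174863 at 23.55 TPM (16.56 to 16.90).

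For 24 of the 150 genes the difference of W- and Z-hybrid germ cells by Quartz-seq changed between 14 and 12 dpf by the interaction test, a share near that of the ranked genes. With 1 Z-hybrid library at each age, the part of that library in the change was not tested. For FABP7, ENSDARG00000114742, ern1, TST and rassf2b the Z-hybrid library of 12 dpf was under 1 TPM, and no size is given. The other 19 were ATP6V1C1, NUDT14, si:ch211-195m9.3, NAPEPLD, jam2a, DIPK2A, NKAIN4, znf280d, FADS3, ZHX2, PDCD10, SMC2, MEN1, UMPS, EIF3D, LETM2, HDAC1, TP53I11 and lrwd1, with log2 changes between -3.92 and -1.52.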

How the results depend on the processing

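Of the 150 genes, 72 were among the 150 lowest by Spearman's in place of Pearson's correlation, 65 on log2 CPM with TMM and 39 with values centred on group means, and between 52 and 137 when a library was left out. W- against Z-hybrid at 14 dpf, the 2 genes called higher became 6 with DESeq2, 5 with library size alone, 7 with no filter, 4 with the replicate block, 12 with all 20 germ cell libraries in the fit, and 1 to 4 when a library was left out. The 20 called lower became 10 with library size alone, 36 with the replicate block and 55 with all 20 libraries. In the same order, the share of the ranked genes called lower went from 7.34% to 4.30%, 12.3% and 14.6%. Their share called higher went from 6.36% to 9.56%, 10.7% and 15.3%. At 12 dpf, the 27 called higher became 46 with all 20 libraries, and the share of the ranked genes went from 24.8% to 34.9%. The 13 called lower became 23 with DESeq2, 22 with the replicate block, 25 with all 20 libraries and 8 to 18 when a library was left out, with 8 without W-hybrid replicate 1. The count of 31 lower in germ cells than in trunk cells became 15 with library size alone, and the share of the ranked genes went from 22.1% to 11.5%. A library left alone in its group was assumed to vary like the others. The level of the 150 genes relative to all ranked genes, W- minus Z-hybrid at 14 dpf, was -0.62 in mean log2(TPM + 1), -0.752 with a pseudocount of 0.1, -0.725 on log2 CPM and -0.373 as a median. At 12 dpf it was -0.20, -0.285 with a pseudocount of 0.1 and, reversed, 0.018 as a median. For germ minus trunk cells it was 0.10, reversed to -0.031 with a pseudocount of 0.1 and to -0.047 on log2 CPM, and 0.038 as a median. The cause of these moves was not tested. Of the values of single genes, 435 kept their call and 15 lost it, 10 of them at 14 dpf with library size alone, and none reversed. The replicate numbers pair no known batches: over 23154 genes the deviations of same-numbered W-hybrid Quartz-seq libraries correlated at 0.131, with 2 pairs. The single Z-hybrid library at each age limits the comparisons between the hybrids by Quartz-seq, and the library of 12 dpf was shallow as well (13828829 counts, against 30748551 in the Z-hybrid library of 14 dpf).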
